A study of Mus musculus with 4 samples.

Results

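Genes for leukocyte adhesion molecules, chemokines and interleukin 6 were examined in endothelial cells of the mouse heart. The 10 genes, Icam1, Icam2, Vcam1, Sele, Selp, Cxcl1, Cxcl12, Ccl2, Cx3cl1 and Il6, were chosen by their symbols, and all 10 were found among the 24346 symbols of the deposited gene table. The series holds 2 libraries labelled ECp53KO, named here by the number in their titles as ECp53KO_170 and ECp53KO_172, and 2 wild-type libraries, Ctrl_178 and Ctrl_182. ECp53KO is not spelled out in the labels and is read here as loss of p53 in endothelial cells, from the title of the series. All libraries share a C57BL/6 background, heart as the tissue and an age given only as young, and all cells were purified by flow cytometric sorting straight from the tissue. The driver of the deletion and the exons removed were not given in the sources used here, and nothing says that each library is 1 mouse, so p-values measure only the spread between these libraries.

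Leukocytes leave the blood in steps. Selectins on the endothelium let them tether and roll, chemokines displayed on the endothelial surface activate their integrins, and integrins then bind members of the immunoglobulin superfamily such as ICAM-1 and VCAM-1 for firm arrest. Resting capillary endothelium carries ICAM-2 and some ICAM-1 and, in several organs, secretes CXCL12. E-selectin, VCAM-1, CXCL1, CCL2 and interleukin 6 are classic products of endothelium stimulated by tumour necrosis factor or interleukin 1, through the transcription factor NF-κB.

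The values are FPKM, fragment numbers relative to gene length and library depth, so levels of different genes can be set side by side. Depth estimated from the smallest values came to 11400000 fragments for ECp53KO_170 and 9900000 for ECp53KO_172, against 11000000 for Ctrl_178 and 22700000 for Ctrl_182. Trp53, which encodes p53, had 4.41 and 2.45 FPKM in ECp53KO_170 and ECp53KO_172, against 52.1 and 28.8 FPKM in Ctrl_178 and Ctrl_182, which did not pass the test (limma adjusted p = 0.146). All 12 endothelial markers were measured, and they summed to 6970 and 6790 FPKM in the ECp53KO libraries against 6720 and 6650 FPKM in the Ctrl libraries. Markers of leukocytes, which can carry chemokine transcripts of their own, summed over 20 genes to 15.3 and 14.8 FPKM in the ECp53KO pair and to 20.9 and 14.2 FPKM in the Ctrl pair. The pan-leukocyte gene Ptprc was at 0.0654 and 0 FPKM in the ECp53KO pair and at 0.0511 and 0.108 FPKM in the Ctrl pair, and the T cell gene Cd3e was listed at 0 in all libraries. Other leukocyte markers were higher. Cd68 was at 0.702 and 0.307 FPKM in the ECp53KO pair and 4.31 and 1.08 FPKM in the Ctrl pair. S100a8 was at 0.433 and 6.47 FPKM, against 2.25 and 1.54 FPKM. S100a9, the most abundant of these markers, was at 3.85 and 0.885 FPKM, against 4.54 and 2.71 FPKM. ECp53KO_172 was thus the highest library for S100a8 and the lowest for S100a9. Lyz2 was at 3.05 and 2.52 FPKM, against 2.88 and 3.19 FPKM. Of the 6 tested leukocyte markers, 3 were higher and 3 lower in ECp53KO by log2 fold change, and 0 passed after adjustment. In sorted bulk samples, fewer cells of a type and less RNA per cell cannot be told apart.

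Upstream sequence is shown for 3 members, Cxcl1, Il6 and Sele: Cxcl1 as the member whose groups did not overlap, Il6 as the member with a match to each of the motifs searched, and Sele as a selectin that also varied widely between libraries. Each run holds the 250 bases before the transcript start on the plus strand, from RefSeq's GRCm38.p6 sequence, and capitals mark matches on either strand to the NF-κB consensus, to the AP-1 motif TGANTCA or to the p53 half-site consensus. Cxcl1 is at chr5:90890995-90891244, Il6 at chr5:30012864-30013113 and Sele at chr1:164047984-164048233, the last of these within the annotated Sele gene.
Cxcl1: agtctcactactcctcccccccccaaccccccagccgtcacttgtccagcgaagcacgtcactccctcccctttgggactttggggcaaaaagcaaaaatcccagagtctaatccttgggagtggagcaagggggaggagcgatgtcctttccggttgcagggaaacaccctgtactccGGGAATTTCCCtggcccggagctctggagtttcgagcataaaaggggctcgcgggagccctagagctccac
Il6: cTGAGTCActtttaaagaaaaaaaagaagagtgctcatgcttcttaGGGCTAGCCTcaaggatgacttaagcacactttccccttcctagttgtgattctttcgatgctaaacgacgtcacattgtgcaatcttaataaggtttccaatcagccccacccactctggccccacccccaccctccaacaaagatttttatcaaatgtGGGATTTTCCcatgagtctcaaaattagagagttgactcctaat
Sele: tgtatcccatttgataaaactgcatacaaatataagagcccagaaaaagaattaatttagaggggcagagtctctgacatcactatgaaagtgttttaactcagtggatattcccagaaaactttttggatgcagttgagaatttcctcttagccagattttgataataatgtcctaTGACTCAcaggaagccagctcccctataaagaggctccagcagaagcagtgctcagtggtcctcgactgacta
In the Cxcl1 window the capitals are 2 overlapping NF-κB matches, which begin 71 and 70 bases before the start. In the Il6 window they are, from the left, an AP-1 match, a p53 half-site match and an NF-κB match that begins 44 bases before the start. In the Sele window they are an AP-1 match that begins 73 bases before the start. Windows were found for 7 of the 10 members (Icam1, Sele, Selp, Cxcl1, Cxcl12, Cx3cl1 and Il6), of which 2 held the NF-κB consensus, 3 the AP-1 motif and 1 the p53 half-site. Over all 32851 windows of this length, 3.9% held the NF-κB consensus, 6.75% the AP-1 motif and 7.13% the p53 half-site. These are matches of letters, and no binding was measured.

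No member passed the test between ECp53KO and Ctrl. The levels of the members ran from 651 FPKM for Cxcl12 to 0.602 FPKM for Selp as means over the 4 libraries, with Cxcl12 and Icam2 far above the rest and both selectins at the bottom. Only Cxcl1, a neutrophil-attracting chemokine, was higher in both ECp53KO libraries than in either Ctrl sample. The same was so for 19.1% of all tested genes. For the other members, the libraries of the groups overlapped, and libraries of the same genotype differed by up to 5.91-fold, as they did for Selp between ECp53KO_172 and ECp53KO_170.

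**Figure D1:**
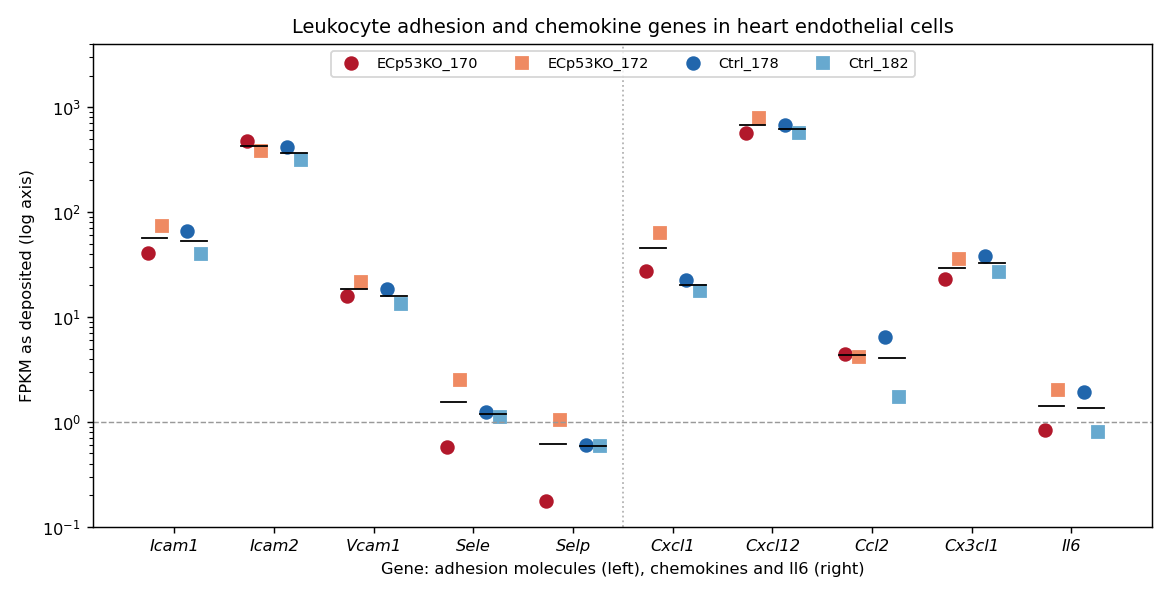
FPKM (log axis) of each member in every library, adhesion molecules left and chemokines with Il6 right of the dotted line, with ECp53KO left of Ctrl for each gene. Black bars are means of 2 libraries, the dashed line marks 1 FPKM, and circles and squares mark libraries with low and high Xist. Cxcl1 at 27.6 and 62.6 FPKM in the ECp53KO pair, against 22.5 and 17.5 FPKM in the Ctrl pair, is the member whose groups do not overlap. Of all tested genes, 19.1% are higher in both ECp53KO libraries in this way.

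Of the immunoglobulin superfamily members, Icam2, which encodes a constitutive ligand of the leukocyte integrin LFA-1 (chromosome 11, 106377656 to 106388139, GRCm38), was the most abundant. It had 473 and 380 FPKM in ECp53KO_170 and ECp53KO_172, against 420 and 312 FPKM in Ctrl_178 and Ctrl_182. The 2 ranges overlapped, and the means were 427 ± 65.3 FPKM in ECp53KO and 366 ± 76.7 FPKM in Ctrl (SD, n = 2 each). The log2 fold change, taken throughout as ECp53KO minus Ctrl on log2(FPKM + 1), was 0.23 ± 0.25 (SE), with a 95% interval of -0.42 to 0.87 and a limma adjusted p of 0.885. Icam2 lies 36.8 Mb from Trp53 on the same chromosome.

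Icam1, the inducible ligand of LFA-1 and Mac-1 (chromosome 9, 21015940 to 21028814), had 40.5 and 73.5 FPKM in ECp53KO_170 and ECp53KO_172, against 65.9 and 39.5 FPKM in Ctrl_178 and Ctrl_182. Each group thus held a library near 40 and a library well above it. The means were 57.0 ± 23.3 FPKM in ECp53KO and 52.7 ± 18.6 FPKM in Ctrl (SD, n = 2 each), and the log2 fold change was 0.09 ± 0.37 (limma adjusted p = 0.969). Its 95% interval ran from -0.86 to 1.05.

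Vcam1, the ligand of the integrin VLA-4 on monocytes and lymphocytes (chromosome 3, 116110020 to 116129688), had 15.8 and 21.5 FPKM in ECp53KO_170 and ECp53KO_172, against 18.6 and 13.2 FPKM in Ctrl_178 and Ctrl_182. The highest of the 4 was an ECp53KO library and the lowest a Ctrl library, with the other 2 crossed between them. The log2 fold change was 0.22 ± 0.24, with an interval of -0.39 to 0.84 (limma adjusted p = 0.882).

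The selectins, which lie close together on chromosome 1, were barely measured. Sele, encoding E-selectin (164039614 to 164058487), had 0.571 and 2.52 FPKM in ECp53KO_170 and ECp53KO_172, against 1.25 and 1.11 FPKM in Ctrl_178 and Ctrl_182. These values stand for about 19 and 73 fragments in ECp53KO and 40 and 74 in Ctrl, at the estimated depth and the longest annotated transcript. Both ECp53KO libraries lay outside the range of the controls, on opposite sides. For Sele the estimate was a log2 fold change of 0.11 ± 0.43, with an interval of -0.98 to 1.2 (limma adjusted p = 0.969).

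Selp, encoding P-selectin, which platelets also carry (164115264 to 164150026), had 0.176 and 1.04 FPKM in ECp53KO_170 and ECp53KO_172, against 0.603 and 0.587 FPKM in Ctrl_178 and Ctrl_182. That is about 7 and 35 fragments in ECp53KO and 23 and 46 in Ctrl. As with Sele, the ECp53KO libraries bracketed the controls. With a mean of 0.602 FPKM, Selp was the member left out by the filter at a mean of 1 FPKM, so it has no test over the 11332 genes that passed, and 9 members do. The fit with no filter put its log2 fold change at -0.04 ± 0.29 (adjusted p = 0.977 by limma). The 8 platelet markers summed to 14.4 and 2.69 FPKM in ECp53KO_170 and ECp53KO_172 and to 8.39 and 5.04 FPKM in Ctrl_178 and Ctrl_182. The part of platelets in the Selp values was not tested.

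Among the chemokines, Cxcl12, which holds CXCR4-bearing leukocytes and progenitors in tissues (chromosome 6, 117168535 to 117181368), was the highest member. It had 573 and 789 FPKM in ECp53KO_170 and ECp53KO_172, against 673 and 569 FPKM in Ctrl_178 and Ctrl_182. That put it at rank 148 of all 24346 genes by mean FPKM, with Icam2 at rank 237. The ECp53KO libraries again bracketed one of the controls, and the spread over the 4 libraries, 1.39-fold, was the narrowest of any member. The log2 fold change was 0.12 ± 0.27, with an interval of -0.57 to 0.81 (limma adjusted p = 0.94).

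Cxcl1, a ligand of the neutrophil receptor CXCR2 (chromosome 5, 90891245 to 90893121), had 27.6 and 62.6 FPKM in ECp53KO_170 and ECp53KO_172, against 22.5 and 17.5 FPKM in Ctrl_178 and Ctrl_182. Both ECp53KO libraries were above both controls, but ECp53KO_170 was nearer to Ctrl_178 than to ECp53KO_172. The means were 45.1 ± 24.8 FPKM in ECp53KO and 20.0 ± 3.59 FPKM in Ctrl (SD, n = 2 each), a ratio of 2.26. The log2 fold change was 1.03 ± 0.40, with an interval of 0.01 to 2.05, a limma unadjusted p of 0.0478 and a limma adjusted p of 0.864. Without ECp53KO_172 the log2 fold change was 0.46 (limma adjusted p = 0.394) and without ECp53KO_170 it was 1.61 (limma adjusted p = 0.611), so the size of the difference rests on ECp53KO_172. Over the 12 alternatives the limma adjusted p of Cxcl1 ran from 0.394 to 1.

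Cx3cl1, which encodes the membrane-bound chemokine fractalkine (chromosome 8, 94772180 to 94782427), had 23.0 and 35.7 FPKM in ECp53KO_170 and ECp53KO_172, against 38.1 and 27.1 FPKM in Ctrl_178 and Ctrl_182. It was the tested member with a negative log2 fold change, -0.16 ± 0.28, with an interval of -0.87 to 0.55 (limma adjusted p = 0.922). The groups overlapped, as they did for Ccl2.

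Ccl2, the monocyte chemoattractant MCP-1 (chromosome 11, 82035577 to 82037452, 12.4 Mb from Trp53), had 4.46 and 4.19 FPKM in ECp53KO_170 and ECp53KO_172, against 6.48 and 1.71 FPKM in Ctrl_178 and Ctrl_182. Here the ECp53KO libraries were alike and the controls 3.78-fold apart, the reverse of what was seen for the selectins. Ccl2 had a log2 fold change of 0.24 ± 0.49 with an interval of -1.01 to 1.49 (limma adjusted p = 0.935). It was 0.97 without Ctrl_178 and -0.49 without Ctrl_182.

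Il6, a cytokine that drives the acute phase response (chromosome 5, 30013114 to 30019975), had 0.829 and 2.01 FPKM in ECp53KO_170 and ECp53KO_172, against 1.92 and 0.795 FPKM in Ctrl_178 and Ctrl_182. Like Icam1, it had a high and a low library in each group at nearly the same pair of values. These stand for about 22 and 47 fragments in ECp53KO and 49 and 42 in Ctrl. For Il6 the log2 fold change was 0.04 ± 0.39, with an interval of -0.95 to 1.02 (limma adjusted p = 0.988).

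Ordered by mean FPKM over the 4 libraries, the members ran Cxcl12 (651), Icam2 (396), Icam1 (54.8), Cxcl1 (32.6), Cx3cl1 (31.0), Vcam1 (17.3), Ccl2 (4.21), Il6 (1.39), Sele (1.36) and Selp (0.602). Ranges over libraries did not overlap between Cxcl12 and Icam2, between Icam2 and Icam1, between Cx3cl1 and Vcam1, or between Vcam1 and Ccl2. All other neighbours in this order overlapped.

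**Figure D2:**
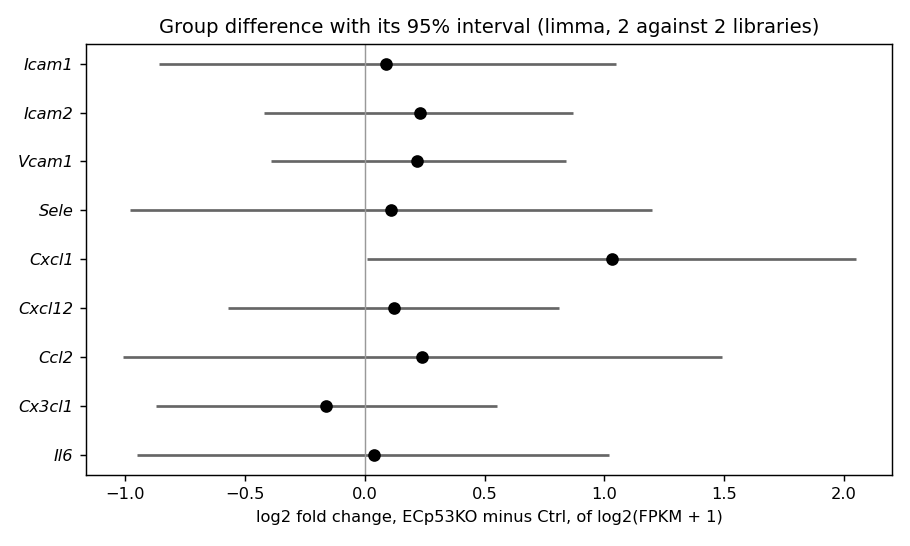
Log2 fold change of each tested member (points; ECp53KO minus Ctrl on log2(FPKM + 1)) with its 95% interval from limma (lines), 2 libraries per group. The interval of Cxcl1 runs from 0.01 to 2.05, and the intervals of the other 8 tested members include 0.

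By limma, 0 of the 9 tested members passed an adjusted p of 0.05 in either direction, and 1 (Cxcl1) was higher and 0 lower at an unadjusted p under 0.05. Over all 11332 tested genes, 0.0265% were higher and 0.0882% lower after adjustment, and 1.97% and 2.82% at the unadjusted threshold. The count of 0 was the same under the alternatives that kept all libraries. Trp53 itself, at a log2 fold change of -3.2, did not pass with 2 libraries per group. A count of 0 therefore does not show that the members were unchanged. Of the 9, 1 was higher in both ECp53KO libraries than in either Ctrl sample and 0 were lower, against 19.1% and 16.8% of all tested genes. A positive fold change was seen in 8 of the 9, against 51.7% of all genes, with a median of 0.12 beside 0.01 over all genes. That median was -0.11 without ECp53KO_172, -0.01 without Ctrl_182, 0.40 without ECp53KO_170 and 0.44 without Ctrl_178, so its sign turned with the library left out.

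Libraries of the same genotype were often far apart. For 9 of 9 tested members, the gap between the libraries of at least 1 group exceeded the difference between group means on the log2 scale, which was so for 77.7% of all tested genes. ECp53KO_172 had the highest value of 6 of the 9, against 20.1% of all tested genes, and of 7 of all 10 members. A fold of 1.5 or more separated ECp53KO_172 and ECp53KO_170 for 5 of the 9, against 21.2% of all tested genes. In 7 of the 9, ECp53KO_172 was above ECp53KO_170 and Ctrl_178 was above Ctrl_182 at the same time, against 23.5% of all tested genes. Icam2 and Ccl2 were the exceptions, in both cases because ECp53KO_170 was above ECp53KO_172. All 9 were higher in ECp53KO_172 than in Ctrl_182, against 49.8% of all tested genes. These patterns were noticed in the values and carry no test.

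**Figure D3:**
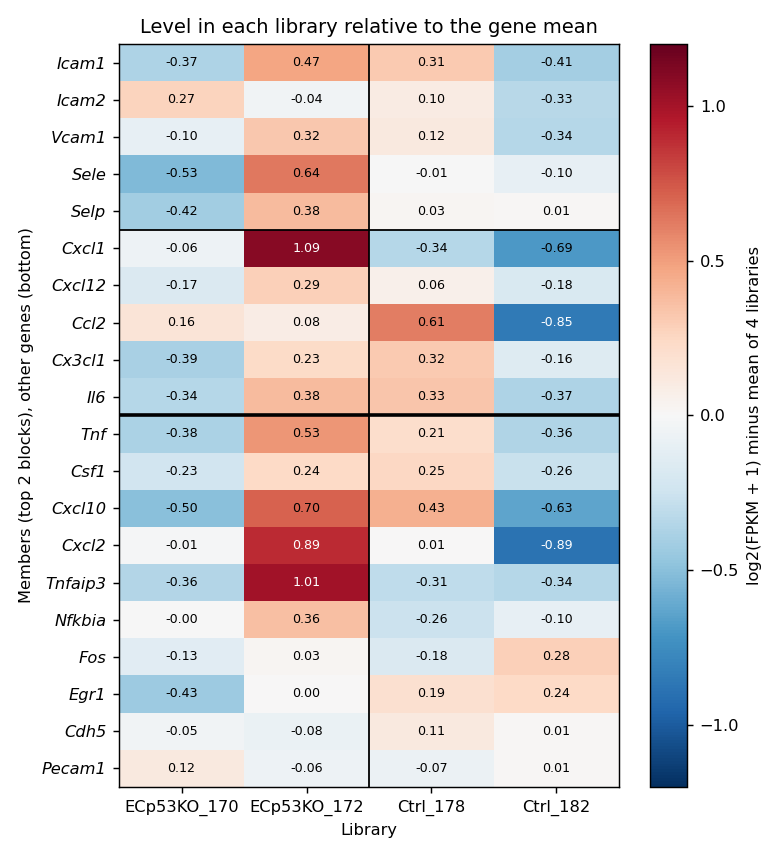
Level of each member (upper blocks) and of 10 other genes (lower block) in every library as log2(FPKM + 1) minus the mean over the 4 libraries, red above and blue below the mean. Icam1 (-0.37 and 0.47 in ECp53KO_170 and ECp53KO_172, 0.31 and -0.41 in Ctrl_178 and Ctrl_182) and Il6 (-0.34 and 0.38, then 0.33 and -0.37, in the same libraries) run nearly in step on this scale.

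Likeness of profile was measured as the root mean square difference between log2 values centred on each gene's mean over the 4 libraries. By this measure Icam1 and Il6 were nearest to each other, at 0.053, and Vcam1 and Cxcl12 were nearest to each other, at 0.095. The values were log2(FPKM + 1), which narrows differences of low genes such as Il6. In FPKM, ECp53KO_172 over ECp53KO_170 was 1.81-fold for Icam1 and 2.43-fold for Il6. Ctrl_178 over Ctrl_182 was 1.67-fold for Icam1 and 2.42-fold for Il6. Cx3cl1 was nearest to Il6 (0.133), Sele to Icam1 (0.25), Icam2 to Vcam1 (0.261), Ccl2 to Icam2 (0.375) and Cxcl1 to Sele (0.472). On log2(FPKM + 1), Cxcl1 had the widest range of the tested members, 1.79. As a plain ratio of highest to lowest FPKM, Sele (4.42) and Ccl2 (3.78) ranged wider than Cxcl1 (3.59). Of 10694 other tested protein-coding genes the nearest to Cxcl1 were the histone gene Hist1h4k (0.19), the related chemokine Cxcl2 (0.225) and Tnfaip3 (0.234), which encodes the NF-κB inhibitor A20.

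Cxcl2, like Cxcl1 a ligand of CXCR2, had 3.52 and 7.45 FPKM in ECp53KO_170 and ECp53KO_172, against 3.57 and 1.46 FPKM in Ctrl_178 and Ctrl_182. Tnfaip3 had 7.43 and 20.7 FPKM in the same ECp53KO libraries, against 7.71 and 7.49 FPKM in the Ctrl libraries. Hist1h4k, the nearest gene, had 2.38 and 5.02 FPKM in ECp53KO_170 and ECp53KO_172, against 2.07 and 1.41 FPKM in Ctrl_178 and Ctrl_182. All were selected for likeness to Cxcl1, so ECp53KO_172 as their highest library follows from the selection. ECp53KO_170 was above Ctrl_178 for Hist1h4k and not above it for Cxcl2 and Tnfaip3. Neither Cxcl2 nor Tnfaip3 passed the test, with log2 fold changes of 0.88 ± 0.44 and 0.65 ± 0.45.

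Transcripts of 3 further inflammatory genes, named after their values were seen, had the same high and low libraries as Icam1 and Il6. Tnf, encoding tumour necrosis factor, had 4.04 and 8.45 FPKM in ECp53KO_170 and ECp53KO_172, against 6.61 and 4.13 FPKM in Ctrl_178 and Ctrl_182. Csf1, a growth factor of macrophages, had 26.7 and 37.5 FPKM in ECp53KO_170 and ECp53KO_172, against 37.8 and 26.1 FPKM in Ctrl_178 and Ctrl_182. Cxcl10, an interferon-induced chemokine, had 10.8 and 26.2 FPKM in ECp53KO_170 and ECp53KO_172, against 21.5 and 9.77 FPKM in Ctrl_178 and Ctrl_182. In all 3, ECp53KO_172 and Ctrl_178 were the high libraries, but the 3 were picked with their values known. Over all tested genes, 23.5% had ECp53KO_172 above ECp53KO_170 and Ctrl_178 above Ctrl_182. Genes picked in this way cannot be set against that share. Other genes of the same lists did not follow this order. Il15 had 24.6 and 18.6 FPKM in ECp53KO_170 and ECp53KO_172, against 15.7 and 22.8 FPKM in Ctrl_178 and Ctrl_182. ECp53KO_172 was above ECp53KO_170 for 3 of the 9 tested other chemokine ligands and 3 of the 5 tested other cytokines and growth factors.

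Immediate early genes, which are known to respond quickly to many stimuli, had the ECp53KO libraries in the members' order and the Ctrl libraries reversed. The mean log2(FPKM + 1) over 20 of them was 7.47 in ECp53KO_170 and 7.63 in ECp53KO_172, against 7.63 in Ctrl_178 and 7.77 in Ctrl_182, so that Ctrl_182 was highest. Over the 10 members the same mean was 4.11 in ECp53KO_170 and 4.69 in ECp53KO_172, against 4.46 in Ctrl_178 and 3.97 in Ctrl_182, with Ctrl_182 lowest. The median log2 fold change of the 20 was -0.17, or 0.02 without Ctrl_182 and -0.44 without Ctrl_178, with 4 positive and 16 negative. In both ECp53KO samples 3 were higher and 7 lower than in either Ctrl sample, beside 19.1% and 16.8% of all tested genes. By limma 0 passed after adjustment. At an unadjusted limma p under 0.05, 0 were higher and 2 lower, beside 1.97% and 2.82% of all tested genes. The 2 lower were Egr3 (1.79 and 2.37 FPKM in the ECp53KO pair, 3.67 and 4.26 FPKM in the Ctrl pair) and Nr4a1 (75.0 and 121 FPKM in the ECp53KO pair, 157 and 221 FPKM in the Ctrl pair), both transcription factors. The abundant Fos stood at 1090 and 1220 FPKM in the ECp53KO pair and at 1060 and 1460 FPKM in the Ctrl pair.

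Of the remaining adhesion and transmigration molecules, 23 of 24 were in the table and 16 were tested. By limma 0 passed after adjustment, 0 had an unadjusted p under 0.05, and the median log2 fold change was -0.09 beside 0.01 over all genes, and between -0.11 and -0.01 with a library left out. The junctional adhesion molecules Jam3 (87.7 and 63.9 FPKM in the ECp53KO pair, 57.8 and 49.9 FPKM in the Ctrl pair) and Jam2 (341 and 277 FPKM in the ECp53KO pair, 209 and 250 FPKM in the Ctrl pair) had the smallest p-values. Both were higher in both ECp53KO libraries than in either Ctrl sample, with log2 fold changes of 0.47 ± 0.21 and 0.43 ± 0.21 (limma adjusted p = 0.864 for each). Cdh5, encoding VE-cadherin, was the most abundant of the list, at 982 and 958 FPKM in the ECp53KO pair and 1100 and 1020 FPKM in the Ctrl pair. Of the 16 tested genes, 4 were higher and 5 lower in both ECp53KO samples than in either Ctrl sample, beside 19.1% and 16.8% of all tested genes.

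Most other chemokine ligands were near 0. Of 32 in the table, 9 were tested and 7 were listed at 0 in every library, and by limma 0 passed after adjustment. At an unadjusted limma p under 0.05, 1.97% of all tested genes were higher and 2.82% lower. Of the 9 ligands, 0 were higher and 1 was lower at that threshold. That gene was Ccl5, a chemokine for T cells and monocytes, at 3.73 and 5.72 FPKM in ECp53KO_170 and ECp53KO_172, against 11.4 and 7.95 FPKM in Ctrl_178 and Ctrl_182. Its groups did not overlap, and its log2 fold change was -0.90 ± 0.27 (limma unadjusted p = 0.019, adjusted p = 0.864). Ccl27a, known as a chemokine of skin-homing T cells, went the other way, at 6.24 and 3.90 FPKM in the ECp53KO pair and 2.56 and 3.15 FPKM in the Ctrl pair. Of the 9 tested ligands, 1 was higher and 1 lower without overlap, beside 19.1% and 16.8% of all tested genes. The interferon-induced Cxcl9 was the most abundant of the list, at 25.5 and 22.7 FPKM in the ECp53KO pair and 31.9 and 14.8 FPKM in the Ctrl pair. The median of the 9 was 0.20, and it was -0.25 without Ctrl_182 and 0.51 without Ctrl_178.

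Among 16 other inflammatory cytokines and growth factors, 5 were tested and 5 had a positive fold change, with a median of 0.14, or between 0.09 and 0.27 with a library left out. By limma 0 passed after adjustment and 0 had an unadjusted p under 0.05. The death ligand gene Tnfsf10 (43.4 and 34.7 FPKM in the ECp53KO pair, 33.2 and 23.4 FPKM in the Ctrl pair) and the stem cell factor gene Kitl (211 and 220 FPKM in the ECp53KO pair, 199 and 196 FPKM in the Ctrl pair) were higher in both ECp53KO libraries than in either Ctrl sample. Of the 5 tested genes, 2 were higher and 0 lower in this way, beside 19.1% and 16.8% of all tested genes.

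The partners of the members include genes of the endothelium and genes of leukocytes. Transcripts of the leukocyte integrin chains Itgal, Itgam and Itgb2, which form LFA-1 and Mac-1, were at or below 0.337 FPKM in every library. The VLA-4 chain Itga4 was at 0.304 and 0.301 FPKM in the ECp53KO pair and 0.229 and 0.493 FPKM in the Ctrl pair, while its partner Itgb1, which endothelium also uses for matrix adhesion, was at 331 and 308 FPKM in the ECp53KO pair and 324 and 307 FPKM in the Ctrl pair. Selplg, encoding the selectin ligand PSGL-1, was at or below 0.141 FPKM. The chemokine receptor genes Ccr2 and Cx3cr1 were at or below 0.0244 and 0.191 FPKM. These leukocyte genes were thus near 0 in both genotypes. Of 13 counter-receptor genes 4 were tested, with a median of -0.17, or between -0.38 and -0.00238 with a library left out, and by limma 0 passed after adjustment and 0 had an unadjusted p under 0.05. Besides Itgb1, the named ones are the integrin gene Itga9 (4.33 and 6.36 FPKM in the ECp53KO pair, 13.6 and 6.14 FPKM in the Ctrl pair) and the hyaluronan receptor gene Cd44 (3.10 and 4.18 FPKM in the ECp53KO pair, 6.69 and 3.23 FPKM in the Ctrl pair).

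Receptors of CXCL12 and of interleukin 6 had higher transcript levels, apart from the specific interleukin 6 chain. Cxcr4 had 37.8 and 24.5 FPKM in ECp53KO_170 and ECp53KO_172, against 19.5 and 24.6 FPKM in Ctrl_178 and Ctrl_182. Ackr3, which encodes a scavenging receptor of CXCL12, stood at 158 and 120 FPKM in the ECp53KO pair and at 171 and 193 FPKM in the Ctrl pair, with a fold change of -0.40 ± 0.21 in log2 (adjusted p = 0.864 by limma). Ackr3 was lower in both ECp53KO samples than in either Ctrl sample, whereas Cxcr4 overlapped. Of the 5 tested receptors and scavengers, 1 was higher and 2 lower without overlap, beside 19.1% and 16.8% of all tested genes. Il6st, the signalling chain shared by the interleukin 6 family, was at 64.5 and 61.2 FPKM in the ECp53KO pair and 51.9 and 52.6 FPKM in the Ctrl pair, and Il6ra, the specific chain, at 0.7 and 1.91 FPKM in the ECp53KO pair and 0.513 and 0.749 FPKM in the Ctrl pair. Cxcr2, the receptor of CXCL1, was at 0.946 and 0.988 FPKM in the ECp53KO pair and 1.13 and 1.26 FPKM in the Ctrl pair. By limma 0 of the 5 tested genes among 15 receptors and scavengers passed after adjustment, 0 had an unadjusted p under 0.05, and the median was -0.01, or between -0.18 and 0.24 with a library left out.

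Components and inducers of NF-κB signalling were divided in direction. All 25 were tested, 12 positive and 13 negative, with a median log2 fold change of -0.01, or between -0.03 and 0.04 with a library left out, and by limma 0 passed after adjustment and 0 had an unadjusted p under 0.05. Tlr2, encoding a receptor for bacterial lipoproteins, stood at 4.82 and 5.29 FPKM in the ECp53KO pair and 3.81 and 2.23 FPKM in the Ctrl pair, and the kinase gene Irak1 at 18.9 and 25.0 FPKM in the ECp53KO pair and 37.8 and 27.1 FPKM in the Ctrl pair. Tnfrsf1a, encoding the main receptor of tumour necrosis factor, was the most abundant, at 147 and 151 FPKM in the ECp53KO pair and 164 and 145 FPKM in the Ctrl pair.

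Of 20 NF-κB targets outside adhesion and chemokines, 18 were tested, 7 positive and 11 negative, with a median of -0.04, or 0.12 without Ctrl_178. By limma 0 passed after adjustment and 0 had an unadjusted p under 0.05. Nfkbia, encoding the inhibitor IκBα, was the most abundant, at 368 and 471 FPKM in the ECp53KO pair and 308 and 343 FPKM in the Ctrl pair. The stress gene Ier3 was at 196 and 269 FPKM in the ECp53KO pair and 142 and 183 FPKM in the Ctrl pair, and the transcription factor gene Cebpb at 3.22 and 2.56 FPKM in the ECp53KO pair and 5.16 and 3.74 FPKM in the Ctrl pair. Nfkbia and Ier3 were higher, and Cebpb lower, in both ECp53KO samples than in either Ctrl sample, with limma adjusted p-values of 0.864 for each. Of the 18 tested targets, 4 were higher and 3 lower in this way, beside 19.1% and 16.8% of all tested genes.

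A list of 8 genes joins proteases that act on adhesion molecules and chemokines with partners and an inhibitor of such proteases, and 6 were tested. By limma 0 passed after adjustment and 0 had an unadjusted p under 0.05, and the median was -0.21, or -0.02 without ECp53KO_170 and -0.40 without ECp53KO_172. Adam10 and Adam17, which encode the sheddases of fractalkine and were named after their values were seen, had log2 fold changes of -0.01 ± 0.16 and 0.0 ± 0.17. Adam10 was at 67.4 and 70.8 FPKM in the ECp53KO pair and 74.4 and 65.4 FPKM in the Ctrl pair. The metalloproteinase gene Mmp2 was at 1.63 and 2.60 FPKM in the ECp53KO pair and 3.20 and 3.74 FPKM in the Ctrl pair, and Rhbdf2, which encodes a partner of the sheddase ADAM17, at 21.7 and 41.8 FPKM in the ECp53KO pair and 42.5 and 39.3 FPKM in the Ctrl pair. The inhibitor gene Timp3 was the most abundant of the list, at 314 and 410 FPKM in the ECp53KO pair and 352 and 507 FPKM in the Ctrl pair.

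**Figure D4:**
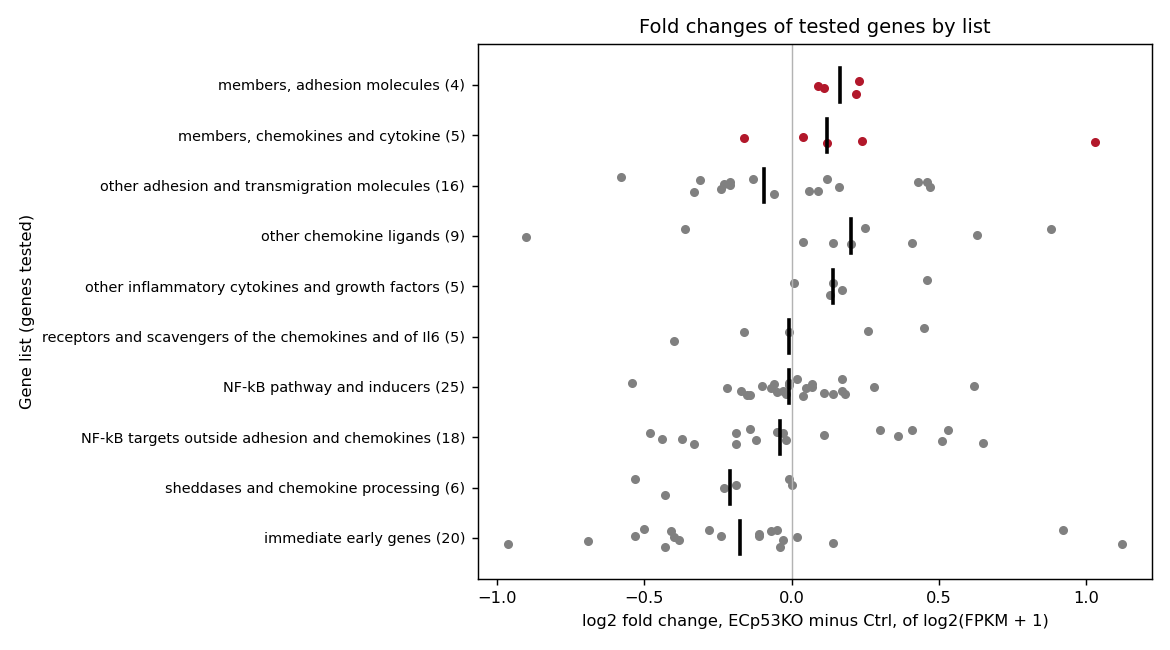
Log2 fold changes (ECp53KO minus Ctrl on log2(FPKM + 1)) of the tested genes of the members and of 8 other lists, cell type markers and counter-receptors left out, with members in red, other lists in grey and black bars at the list medians. These medians lie between -0.21 and 0.20, and Cxcl1 at 1.03 is the farthest member from 0.

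Vessel types differ in these genes, with E-selectin and P-selectin typical of venules, and markers of venous and endocardial endothelium are given for that reason. Venous markers had a mean log2(FPKM + 1) of 4.58 in ECp53KO_170 and 4.59 in ECp53KO_172, against 4.79 in Ctrl_178 and 4.65 in Ctrl_182. Of the 7 tested venous markers 3 had a positive and 4 a negative log2 fold change, with a median of -0.19, or between -0.26 and 0.04 with a library left out, and by limma 0 passed after adjustment. The venous transcription factor gene Nr2f2 was at 2.98 and 3.60 FPKM in the ECp53KO pair and 5.03 and 5.09 FPKM in the Ctrl pair (limma unadjusted p = 0.0431, adjusted p = 0.864), and Vwf, encoding von Willebrand factor, at 19.5 and 22.8 FPKM in the ECp53KO pair and 28.3 and 27.4 FPKM in the Ctrl pair. Apoe, the most abundant venous marker, was at 185 and 136 FPKM in the ECp53KO pair and 115 and 161 FPKM in the Ctrl pair, and Ephb4, encoding a venous ephrin receptor, at 129 and 147 FPKM in the ECp53KO pair and 131 and 120 FPKM in the Ctrl pair. The venular chemokine scavenger gene Ackr1 was at or below 0.433 FPKM in every library. Endocardial markers had means of 2.65 in ECp53KO_170 and 2.88 in ECp53KO_172, against 3.04 in Ctrl_178 and 3.21 in Ctrl_182. By limma 0 of 7 tested endocardial markers passed after adjustment. At an unadjusted limma p under 0.05, 0 were higher and 2 lower, beside 1.97% and 2.82% of all tested genes. All 7 had a negative log2 fold change, with a median of -0.37, or between -0.64 and -0.36 with a library left out. In both ECp53KO samples 0 were higher and 5 lower than in either Ctrl sample, beside 19.1% and 16.8% of all tested genes. The part of vessel type in the members' values was not tested.

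Transcripts of other cell types differed between libraries as well. The 8 erythroid markers, of which 7 were in the table, summed to 411 and 89.3 FPKM in ECp53KO_170 and ECp53KO_172, and to 60.3 and 33.5 FPKM in Ctrl_178 and Ctrl_182. The 10 cardiomyocyte markers had a mean log2(FPKM + 1) of 4.01 in ECp53KO_170 and 3.34 in ECp53KO_172, against 3.42 in Ctrl_178 and 3.38 in Ctrl_182. Mural markers summed to 156 and 131 FPKM in the ECp53KO pair and 86.7 and 107 FPKM in the Ctrl pair, and fibroblast markers, which include sources of Cxcl12 and Ccl2 in the heart, to 61.5 and 49.7 FPKM in the ECp53KO pair and 51.4 and 50.7 FPKM in the Ctrl pair. ECp53KO_170 was thus the library with the most erythroid and cardiomyocyte transcripts, and it also had the highest mural, fibroblast and platelet sums. In both ECp53KO samples, 5 of 5 tested erythroid, 3 of 8 mural, 1 of 8 cardiomyocyte and 3 of 7 fibroblast markers were higher than in either Ctrl sample. Of the fibroblast markers 3 were lower in this way. Over all tested genes 19.1% were higher and 16.8% lower. By limma 0 of these markers passed after adjustment. The part of these cells in the members' values was not tested.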

How the data were processed

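RNA of sorted mouse heart endothelial cells was sequenced as paired 51 bp reads from unstranded, polyadenylated-RNA libraries, per the labels' protocols. Per the submitters' processing notes, the tools were TopHat2 2.1.0, Cufflinks 2.2.1, Trimmomatic 0.36, FastQC 0.11.5 and bcl2fastq 2.17 and the build was mm10, with no roles given, while the gene annotation was not given in the sources used here. FPKM values deposited by the authors covered 4 libraries in 1 table. Since FPKM hold no counts, limma 3.58.1 (R 4.3.3, trend option) was run on log2(FPKM + 1). The 11332 genes whose mean over the libraries reached 1 FPKM were tested, two-sided, with Benjamini-Hochberg adjustment over all tested genes and a threshold of 0.05. The fit had 2 residual degrees of freedom plus 3.15 from the shared variance, and was tested on simulated data. With 2 libraries in each group the smallest exact permutation p is 0.333, so that test was left out.

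Depth was estimated as the most frequent value of 1 fragment among 2172 lowly expressed genes with a single GENCODE M21 transcript, and fragment numbers printed for members are approximate. Positions are from RefSeq's GRCm38.p6 table, of which mm10 is the browser name, and 23143 symbols matched directly, 1098 by a synonym and 105 not at all. Members and gene lists were chosen with earlier results of these data known, and lists are described by counts and medians without a set test. Named genes are the members, Trp53, the partners of the members, and from each other list described the 2 tested genes with the smallest p and the most abundant gene. Of the marker lists, only summed or mean levels and a few defining genes are given. Likeness was computed over 4 libraries. The 12 alternatives were a pseudocount of 0.1, no filter, rescaling to a sum of 1000000, median-of-ratios scaling, leaving out small RNA loci, removing each library's trend with transcript length (known for 99.5% of tested genes), robust shrinkage, Xist above 1 FPKM as a covariate, and leaving out each library in turn.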

Additional observations from a re-analysis of the deposited data

Results flagged for a closer look

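Each group holds 1 library with Xist near 0 and 1 with high Xist (0.0230 and 23.0 FPKM in ECp53KO_170 and ECp53KO_172, 0.0352 and 23.9 FPKM in Ctrl_178 and Ctrl_182). Of the 10 members, 8 were higher in ECp53KO_172 than in Ctrl_182, the pair with Xist, and lower in ECp53KO_170 than in Ctrl_178, the pair without it, so the genotype difference had opposite signs in the 2 pairs. Among the 9 tested members this was so for 7, against 21.8% of all tested genes. All 9 tested members were higher in ECp53KO_172 than in Ctrl_182, against 49.8% of all tested genes. Icam1 was 1.86 times as high in ECp53KO_172 as in Ctrl_182 and 0.615 times as high in ECp53KO_170 as in Ctrl_178. For Il6 the ratios were 2.53 and 0.432, and for Sele 2.27 and 0.456. Cxcl1, at 3.59 and 1.23, and Icam2, at 1.22 and 1.12, had both ratios above 1. With 1 library for each genotype and Xist level, the difference between the pairs was not tested, and Xist level and single libraries cannot be told apart.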

How the results depend on the processing

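No member passed an adjusted p of 0.05 by limma under the alternatives that kept all libraries, a threshold that Trp53 also missed in the main fit. The labels pair no libraries, since replicate numbers differ between the genotypes. With Xist as a covariate, which sets 1 ECp53KO library beside 1 Ctrl library at each Xist level, limma called 2 genes higher and 13 lower. Over all genes, 3 higher genes became 5 with a pseudocount of 0.1, 5 with robust shrinkage and 1 with no filter, and 10 lower genes became 4 without small RNA loci. With 1 library left out, between 1 and 21 genes were higher and between 12 and 58 lower, and a lone library is then assumed to vary like the other group. Sign changes with all libraries kept were seen for Icam1 (-0.02) and Il6 (-0.02) on rescaling to 1000000, which moves the median of all genes to -0.1, and for Il6 (-0.000157) with the length trend removed. On leaving out a library, log2 fold changes ran from -0.33 to 0.52 for Icam1, 0.01 to 0.44 for Icam2, -0.01 to 0.45 for Vcam1, -0.47 to 0.69 for Sele, 0.46 to 1.61 for Cxcl1, -0.11 to 0.35 for Cxcl12, -0.49 to 0.97 for Ccl2, -0.47 to 0.15 for Cx3cl1 and -0.32 to 0.40 for Il6. Cxcl1 and Icam2 kept their sign under all 12 alternatives. The unadjusted limma p of Cxcl1 was 0.0139 without small RNA loci, 0.103 on rescaling and 0.157 with the length trend removed. Without ECp53KO_170, Sele and Cxcl1 had an unadjusted p under 0.05, and without Ctrl_178 Ccl2 did. Sele, Selp, Il6 and Ccl2 rest on few fragments, from about 7 to 74 in a library.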
